A study of Mus musculus with 6 samples.

Results

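The nuclear genes of the respiratory chain were read across 6 RNA sequencing libraries of mouse retinal endothelial cell preparations. Rows were taken by gene symbol (Nduf followed by a, b, c, s or v, Sdha to Sdhd, Uqcr, Cox4 to Cox8, and Atp5, without Ndufa4l2), which gave 91 of the 24421 rows. They fell into complex I (44 rows), complex II (4), complex III (8), complex IV (18) and complex V (17). The symbol rule itself holds no measured values, but the members were chosen with earlier results of these data known. The symbols also take in 7 assembly factors of complex I (Ndufaf1 to Ndufaf7), and Atp5s and Atp5sl, which RefSeq now calls Dmac2l and Dmac2 and which are not subunits of complex V. Ndufa4 is counted with complex I by its symbol, although the protein is now placed in complex IV.

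Of the libraries, 3 came from mutants, Anxa3 fl/fl with Tie2-Cre, and 3 from controls, Anxa3 fl/fl without Cre, all from retinas of C57BL/6 pups at postnatal day 7. The floxed alleles are shared by both groups. Tie2-Cre acts in endothelial cells and in part of the blood lineage, and because Cre was present in the mutants alone, its own effect and that of losing Anxa3 cannot be told apart. The labels do not say how many pups made up a library, so errors measure the spread between libraries. The labels also give each library a letter, A to F, without saying what it stands for: mutant replicate 1 is B and control replicates 1 and 2 are A and C, while mutant replicates 2 and 3 are E and F and control replicate 3 is D.

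The respiratory chain passes electrons from NADH (complex I) and succinate (complex II) through complex III to oxygen at complex IV, and complex V uses the resulting proton gradient to make ATP. Its subunits come from the nuclear and the mitochondrial genome, so the nuclear transcripts are one side of a shared assembly. In the retina, photoreceptor inner segments are packed with mitochondria, whereas endothelial cells draw much of their ATP from glycolysis. Many promoters of these genes carry sites for NRF1, for ETS-family factors such as GABP, and for YY1, which are known regulators of respiratory chain genes.

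Promoter sequences are shown for 4 members to which the results return: Atp5g2, Ndufaf5 and Ndufs8, whose 3 mutant values lay above all 3 control values with the smallest unadjusted p, and Atp5k, which had the largest difference. Each runs from 250 bases before to 50 bases after the start used in the RefSeq promoter table on GRCm38.p6, 5′ to 3′ on the gene's strand, and capitals mark matches to CGCATGCG (the centre of the NRF1 palindrome) or to CCGGAAG (an ETS core, written CTTCCGG where it lies on the other strand). They lie at chr15:102670998-102671297 (minus strand, Atp5g2), chr2:140170396-140170695 (plus strand, Ndufaf5), chr19:3912725-3913024 (minus strand, Ndufs8) and chr5:108434350-108434649 (minus strand, Atp5k).
Atp5g2: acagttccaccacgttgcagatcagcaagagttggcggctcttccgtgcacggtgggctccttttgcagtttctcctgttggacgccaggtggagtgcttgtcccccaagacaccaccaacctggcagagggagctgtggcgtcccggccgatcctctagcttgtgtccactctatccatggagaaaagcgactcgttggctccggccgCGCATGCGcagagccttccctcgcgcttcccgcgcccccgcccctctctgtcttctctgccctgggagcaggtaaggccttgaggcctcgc
Ndufaf5: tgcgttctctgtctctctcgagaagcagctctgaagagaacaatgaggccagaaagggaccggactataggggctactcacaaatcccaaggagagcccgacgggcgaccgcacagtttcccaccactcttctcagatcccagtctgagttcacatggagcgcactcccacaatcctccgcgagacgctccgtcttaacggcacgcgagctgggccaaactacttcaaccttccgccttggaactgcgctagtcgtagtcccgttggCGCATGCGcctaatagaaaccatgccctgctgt
Ndufs8: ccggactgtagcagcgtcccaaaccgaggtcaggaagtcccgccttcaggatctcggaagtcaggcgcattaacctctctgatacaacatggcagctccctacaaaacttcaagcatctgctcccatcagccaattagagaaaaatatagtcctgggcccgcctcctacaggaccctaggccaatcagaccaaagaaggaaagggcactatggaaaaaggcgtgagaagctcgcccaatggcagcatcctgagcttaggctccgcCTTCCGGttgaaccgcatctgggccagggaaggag
Atp5k: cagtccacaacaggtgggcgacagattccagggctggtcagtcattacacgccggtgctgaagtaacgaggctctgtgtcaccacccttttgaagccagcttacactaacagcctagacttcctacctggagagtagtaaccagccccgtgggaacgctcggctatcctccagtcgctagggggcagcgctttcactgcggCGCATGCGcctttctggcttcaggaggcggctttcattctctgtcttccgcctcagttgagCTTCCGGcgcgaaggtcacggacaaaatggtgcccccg
Counting that start as base 1 and the base before it as -1, the NRF1 match began at base -41 in Atp5g2, at -49 in Atp5k and at 18 in Ndufaf5. The ETS match began at base 16 in Ndufs8 and at 13 in Atp5k, on the opposite strand in both. RefSeq gave a promoter for 76 of the 91 members. The NRF1 letters were in 11 of these (14.5%), namely Ndufa8, Ndufa11, Ndufaf4, Ndufaf5, Uqcr11, Uqcrc1, Cox6a1, Atp5g2, Atp5j, Atp5k and Atp5l, against 2.07% of the promoters of the same length of all 27025 genes. The ETS letters were in 17 members (22.4%) against 9.93% of all promoters, and the YY1 letters AAGATGGC in 11 (14.5%) against 3.19%, both strands being searched in each case. TATAAA was in 7 members (9.21%) against 15.7% of all promoters. The members' promoters had a median G and C content of 57.8%, against 52.7% over all promoters. The NRF1 letters were shortened after the matches were seen, so their share was not fixed beforehand. The matches are of letters and are not measured binding sites. The 4 members shown were picked by their differences, and each held an NRF1 or an ETS match. Ndufs7, whose mutant values also lay above all control values, had neither, and held the YY1 letters and TATAAA. A link between such matches and the differences was not tested.

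Values are in FPKM, which divides fragments by transcript length and library depth. The main fit added no further scaling between libraries. Reads per library, recovered from the steps between low FPKM values, ranged from 21370994 to 30876966. The cells' identity was checked first. All 20 pan-endothelial markers were detected, with a summed level of 828, 917 and 1133 FPKM in mutant replicates 1, 2 and 3 and of 840, 774 and 1726 FPKM in control replicates 1, 2 and 3. All 18 photoreceptor markers were detected as well, and their sum was higher, at 7474, 5797 and 5763 FPKM in the mutants and 6873, 6421 and 4764 FPKM in the controls. The libraries therefore hold photoreceptor RNA beside endothelial RNA, and a transcript in them is not assigned to either cell type. Control replicate 3 stood apart, with the highest endothelial sum and the lowest photoreceptor sum. The main counts of members and many, not all, of the larger differences below are also given without it. In bulk RNA, fewer cells of a type and less RNA per cell cannot be told apart. Anxa3, the targeted gene, measured 9.78, 12.51 and 15.1 FPKM in mutants and 18.7, 17.7 and 43.4 FPKM in controls.

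Respiratory chain transcripts were abundant. They made up 1.98, 1.72 and 1.79% of the summed FPKM in the mutants and 1.97, 1.84 and 1.46% in the controls. Atp5b, the catalytic β subunit of complex V, ranked 32 in the whole table by mean FPKM, and Atp5a1, Cox4i1, Ndufa4 and Cox8a ranked 62, 66, 80 and 99. Of the 91 members, 86 reached 1 FPKM in at least 3 libraries and were tested, and 80 of these had at least 100 reads in every library. Their means ran from 1.77 FPKM (Cox7a1) to 378 FPKM (Atp5b), and the median was 49.6 FPKM, against 11.8 FPKM over all tested genes. The 5 members not tested were Ndufs5, a small accessory subunit of complex I that was listed at 0 in every library, and the tissue isoforms Cox6a2, Cox7b2, Cox8b and Cox8c. Ndufs5 shares 31.1% of its 50-base stretches with another gene, and a listed 0 can be a failed estimate rather than an absent transcript.

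Between mutants and controls, 0 of the 86 tested members passed limma's test at an adjusted p under 0.05, and 0.0% of all 13622 tested genes did. The smallest adjusted p of a member was 0.9998 by limma, against 0.627 over all genes. At an unadjusted p under 0.05, limma gave 3 members (3.49%), Atp5g2, Ndufaf5 and Ndufs8, all higher in mutants, while 1.21% of all genes stood under that value in either direction and 0.896% were higher in mutants. With limma voom on recovered reads the unadjusted count was 1 member and 0.712% of all genes, and 0 members passed after adjustment. The design is small, since an exact two-sided permutation test of 3 against 3 libraries cannot give a p below 0.1.

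The differences of single members leaned to one side without passing. The log2 difference, mutant minus control, was positive for 74 of the 86 members (86.0%) and negative for 12, while 47.5% of all genes had a positive one. The median was 0.10 over the members and -0.01 over all genes, on the log2(FPKM + 1) scale. By complex the median was 0.13 in complex I (40 of 43 positive), 0.03 in complex II (3 of 4), 0.14 in complex III (6 of 8), 0.08 in complex IV (11 of 14) and 0.08 in complex V (14 of 17). Without control replicate 3, 34 of the 86 differences were positive against 49.5% of all genes, and the median was -0.02. From complex I to complex V the positive counts were then 20 of 43, 1 of 4, 3 of 8, 4 of 14 and 6 of 17. Without that library the differences thus no longer leaned to the positive side. Mutant replicate 1 alone lay above the mean of control replicates 1 and 2 for 63 of the 86 members, against 54.5% of all genes. The part of control replicate 3 in the lean was not tested.

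**Figure D1:**
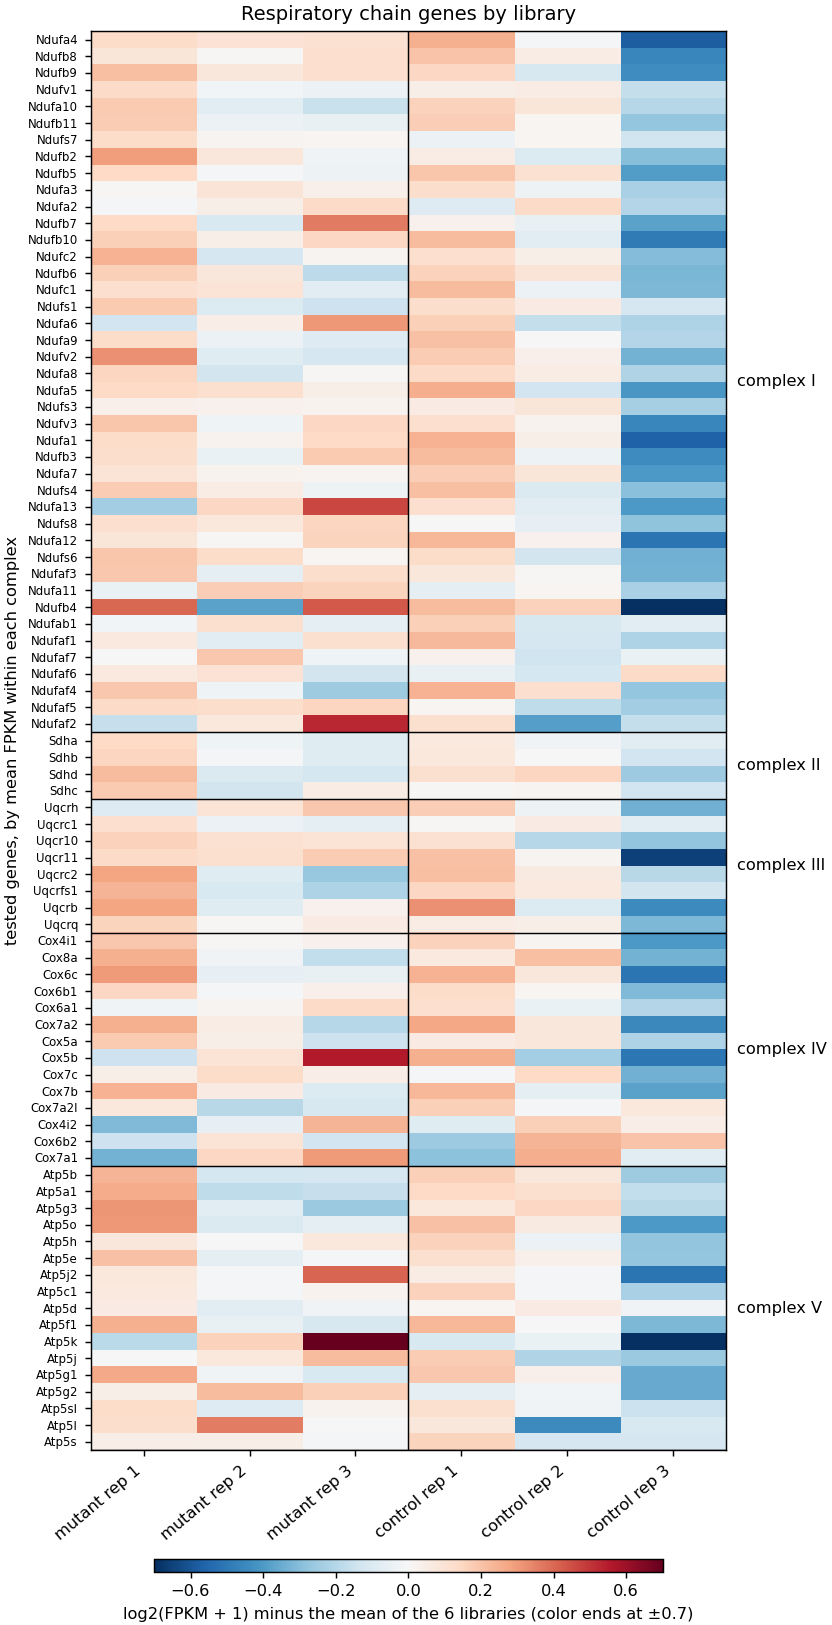
Each row is 1 of 85 of the tested genes, grouped by complex and ordered by mean FPKM, and each column is 1 library, mutants left of controls; color shows log2(FPKM + 1) minus the gene's mean over the 6 libraries. The column of control replicate 3 is blue in most rows of every complex, and it held the lowest value for 70 of all 86 tested genes.

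**Figure D2:**
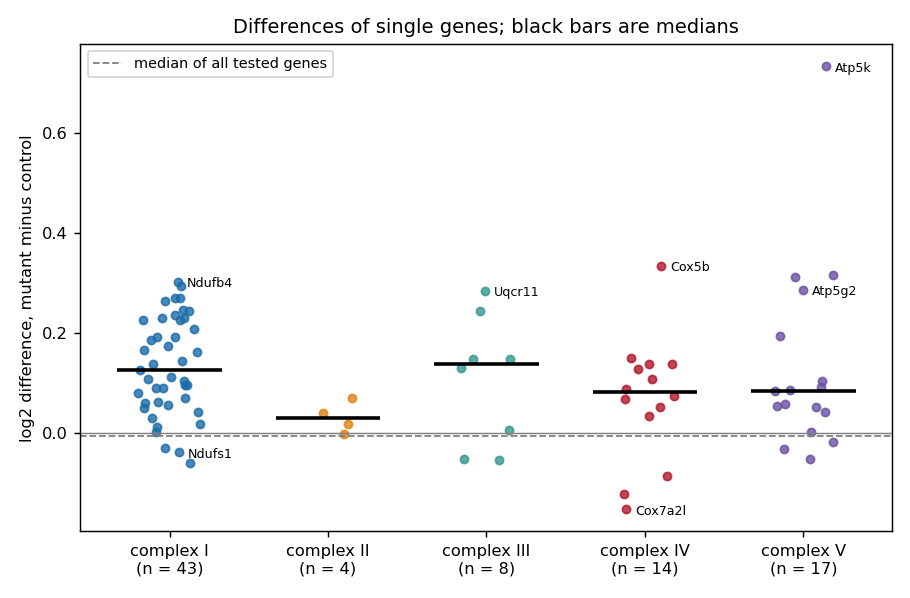
Points are the log2 differences of single genes, mutant minus control, in each complex, black bars are medians, and the dashed line is the median of all tested genes. Differences ran from -0.15 (Cox7a2l) to 0.73 (Atp5k), and the medians of the complexes lay between 0.03 and 0.14.

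Complex I takes electrons from NADH, and its core subunits bind the NADH, the flavin, the iron-sulfur clusters and the quinone. Ndufs8, an iron-sulfur subunit near the quinone site, had 30.6, 29.6 and 31.2 FPKM in mutants and 27.95, 26.9 and 22.9 FPKM in controls. The 3 mutant values lay above the 3 control values, and the log2 difference was 0.23 (standard error 0.098). Without control replicate 3 it remained positive, and its lowest value over the omission of single libraries was 0.15. Ndufs8 lies at chr19:3908863-3912774 on GRCm38.p6.

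Ndufs7, which carries the last iron-sulfur cluster before the quinone, had 63.6, 59.0 and 58.8 FPKM in mutants and 56.5, 58.7 and 52.8 FPKM in controls. Its groups did not overlap either, by a margin of less than 1 FPKM, and the log2 difference was 0.11 (standard error 0.089), or 0.068 without control replicate 3.

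Other core subunits differed less. Ndufs1, the large iron-sulfur subunit, had 50.97, 42.0 and 40.5 FPKM in mutants and 48.9, 46.6 and 41.2 FPKM in controls. Ndufv1, which holds the NADH site, had 84.8, 76.1 and 74.9 FPKM in mutants and 79.4, 80.0 and 68.6 FPKM in controls. The groups overlapped in both genes. Ndufs3 averaged 40.3 ± 0.174 FPKM in mutants and 38.8 ± 4.71 FPKM in controls, and Ndufv2 averaged 41.8 ± 7.49 FPKM in mutants and 39.5 ± 7.03 FPKM in controls (SD, n = 3 each). Of the 7 core subunits, 6 had a positive difference, with a median of 0.08. Without control replicate 3 the count was 3 and the median -0.02.

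Assembly factors of complex I help build the enzyme and are not part of the finished one. They were scarce beside the core subunits, with mean levels from 3.41 FPKM (Ndufaf2) to 18.8 FPKM (Ndufaf3), all under the lowest core subunit, Ndufs8, at 28.2 FPKM. Some accessory subunits lay below Ndufaf3, namely Ndufab1 at 9.80, Ndufb4 at 10.7 and Ndufa11 at 11.7 FPKM. Ndufaf5, known in human cells to modify the Ndufs7 protein during assembly, had 7.25, 7.18 and 7.36 FPKM in mutants and 6.61, 5.64 and 5.36 FPKM in controls. The mutant libraries were close together and all above the controls, with a log2 difference of 0.27 (standard error 0.113). Over the omission of single libraries it stayed between 0.22 and 0.35. Ndufaf5 lies at chr2:140170584-140218965 on GRCm38.p6, bounds that begin upstream of the start used for its promoter window. Ndufaf2 had 2.86, 3.54 and 5.23 FPKM in mutants and 3.67, 2.31 and 2.84 FPKM in controls, which overlapped. Ndufaf6 was the one member of the 86 whose highest value was in control replicate 3, at 8.35 FPKM, against 7.94, 8.16 and 6.81 FPKM in the mutants. Among the 7 assembly factors 6 differences were positive, with a median of 0.10, and 5 without control replicate 3, again with a median of 0.10.

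Accessory subunits surround the core and stabilise it. Of the 29 tested here (with Ndufa4), 28 had a positive difference, with a median of 0.14. Without control replicate 3, 12 of the 29 were positive, with a median of -0.0062. Ndufa4, the most abundant row of the group, had 236, 232 and 232 FPKM in mutants and 257, 214 and 144 FPKM in controls. The mutants fell inside the range of the controls, whose lowest value was in control replicate 3; without that library the log2 difference was -0.0062 in place of 0.23. Ndufb4 had the largest difference in complex I, with 13.8, 7.64 and 14.1 FPKM in mutants and 12.1, 11.6 and 5.27 FPKM in controls. Its groups overlapped, the log2 difference was 0.30 (standard error 0.322) and -0.04 without control replicate 3, and 37.0% of its 50-base stretches also occur in other genes. Ndufa13 had 24.2, 31.9 and 40.2 FPKM in mutants and 31.3, 27.2 and 21.5 FPKM in controls, with the highest value in mutant replicate 3 and overlapping groups. Ndufab1, an acyl carrier protein that also serves mitochondrial fatty acid synthesis, was the lowest accessory subunit tested, averaging 9.84 ± 0.717 FPKM in mutants and 9.77 ± 1.16 FPKM in controls (SD, n = 3 each).

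Complex II has 4 subunits, all encoded in the nucleus, and also works in the tricarboxylic acid cycle. It had the smallest median difference of the 5 complexes. Sdha, the flavin subunit that oxidises succinate, had 82.1, 72.7 and 70.1 FPKM in mutants and 78.0, 73.1 and 70.6 FPKM in controls. Sdhb, the iron-sulfur subunit, averaged 52.4 ± 4.49 FPKM in mutants and 50.9 ± 3.77 FPKM in controls (SD, n = 3 each). The membrane anchors were alike in this, Sdhc averaging 45.6 ± 5.06 FPKM in mutants and 43.3 ± 2.59 FPKM in controls, and Sdhd 49.1 ± 6.87 FPKM in mutants and 49.3 ± 7.45 FPKM in controls. All 4 differences lay between -0.0025 and 0.07 on the log2 scale. The ratio of Sdha to Sdhb was 1.43, 1.42 and 1.44 in the mutants and 1.43, 1.42 and 1.505 in the controls, so it varied little while the levels of both moved between libraries.

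Complex III passes electrons from quinol to cytochrome c. The small subunits had the larger differences in it. Uqcr10 had 76.8, 73.7 and 73.4 FPKM in mutants and 73.9, 59.5 and 56.4 FPKM in controls, a log2 difference of 0.24 (standard error 0.118). Mutants 2 and 3 lay just under control replicate 1, so the groups overlapped by a narrow margin, and without control replicate 3 the difference was 0.17. Uqcr11 had 73.1, 72.0 and 75.2 FPKM in mutants and 76.8, 67.2 and 41.9 FPKM in controls. Here control replicate 3 was far below the other 5 libraries, and without it the log2 difference was 0.03 in place of 0.28.

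The core subunits of complex III had nearly equal group means. Uqcrc1, a core subunit that faces the matrix, had 96.4, 86.2 and 84.5 FPKM in mutants and 89.2, 92.3 and 84.1 FPKM in controls. Uqcrfs1, the Rieske iron-sulfur protein, had 69.5, 54.5 and 50.4 FPKM in mutants and 64.9, 61.7 and 53.5 FPKM in controls. In both genes the groups overlapped, with log2 differences of 0.0068 and -0.05. Uqcrh, the hinge subunit, was the most abundant in the complex at 105 ± 10.1 FPKM in mutants and 96.2 ± 16.9 FPKM in controls, and Uqcrq the least at 51.5 ± 2.80 FPKM in mutants and 46.6 ± 6.52 FPKM in controls (SD, n = 3 each). Uqcrc2, the other core subunit, averaged 60.4 ± 11.98 FPKM in mutants and 62.2 ± 8.77 FPKM in controls. Uqcrb averaged 58.1 ± 7.65 FPKM in mutants and 53.3 ± 14.5 FPKM in controls.

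Complex IV reduces oxygen, and its nuclear subunits include paralogs that differ between tissues. Cox4i1, the common form of subunit 4, had 269, 236 and 240 FPKM in mutants and 263, 238 and 178 FPKM in controls. Cox5b, a zinc-binding subunit, had the largest difference in the complex, with 53.7, 63.7 and 87.8 FPKM in mutants and 70.8, 50.2 and 41.5 FPKM in controls. Mutant replicate 1 lay below control replicate 1, and the log2 difference was 0.33 (standard error 0.230), or 0.16 without control replicate 3. Cox6c and Cox7c, small subunits with a single form here, averaged 132 ± 19.2 and 52.1 ± 1.82 FPKM in mutants, against 123 ± 31.6 and 47.7 ± 7.96 FPKM in controls (SD, n = 3 each). Cox5a averaged 66.0 ± 7.59 FPKM in mutants and 63.6 ± 7.14 FPKM in controls (SD, n = 3 each).

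Cox7a2l, known as a factor for joining complexes III and IV into supercomplexes, had the most negative difference of the 86 members. Whether it has that function in this strain was not examined. It had 38.8, 32.1 and 34.0 FPKM in mutants and 41.5, 36.4 and 38.8 FPKM in controls. Mutant replicate 1 lay within the range of the controls while the other mutants lay below it. The log2 difference was -0.15 (standard error 0.102), and it stayed negative, from -0.23 to -0.09, whichever library was omitted.

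The paralogs of complex IV fell into a common form and a scarce one. Cox4i2, a form of subunit 4 known from lung and from cells that sense oxygen, made up 2.28, 3.13 and 3.85% of Cox4 FPKM in mutants and 2.76, 3.68 and 4.46% in controls. Cox6b2, known from testis, made up 1.25, 1.79 and 1.36% of its pair in mutants and 1.11, 2.02 and 2.43% in controls. Cox7a1, known from heart and skeletal muscle, made up 1.005, 1.97 and 2.73% of its pair with Cox7a2 in mutants and 1.05, 2.16 and 2.2027% in controls. The shares overlapped between groups in all 3 pairs. Cox4i2 itself had 6.27, 7.64 and 9.59 FPKM in mutants and 7.49, 9.09 and 8.29 FPKM in controls. The common forms had group means closer to each other than the spread of the controls. Cox6a1 averaged 107 ± 6.26 FPKM in mutants and 101 ± 11.4 FPKM in controls, and Cox6b1 averaged 120.1 ± 6.86 FPKM in mutants and 112 ± 17.2 FPKM in controls (SD, n = 3 each). Cox7a2 averaged 99.7 ± 15.5 FPKM in mutants and 96.5 ± 23.9 FPKM in controls. Cox7b averaged 47.2 ± 5.72 FPKM in mutants and 43.2 ± 9.21 FPKM in controls. Cox8a averaged 200.5 ± 30.4 FPKM in mutants and 197 ± 36.7 FPKM in controls.

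The isoforms that were not tested, Cox6a2, Cox7b2, Cox8b and Cox8c, were close to undetected. Cox8b had 2 reads in mutant replicate 1 and 1 read in mutant replicate 2, and 0 in the other libraries. Cox6a2 and Cox8c each had 1 read, in control replicate 3, and Cox7b2 had 1 read each in control replicates 2 and 3. No fold is given for them, since 3 reads or fewer per library cannot separate the groups.

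**Figure D3:**
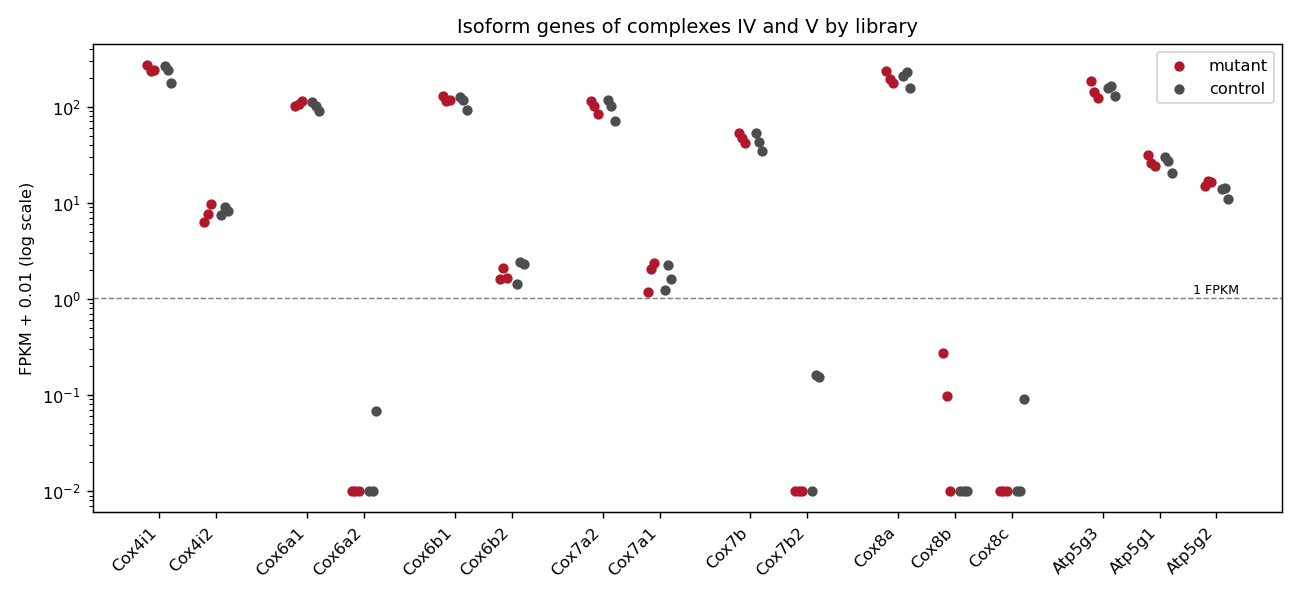
FPKM plus 0.01 on a log axis for the paralogs of complexes IV and V, 1 point per library, mutants left of controls; the dashed line marks 1 FPKM and points at the bottom are listed at 0. In every family of complex IV 1 form was above 30 FPKM in all 6 libraries and the other forms were under 10 FPKM.

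Complex V makes ATP with a catalytic head driven by a membrane ring. The β and α subunits of the head were the most abundant of all members, with close group means. Atp5b had 443, 346 and 347 FPKM in mutants and 422, 397 and 316 FPKM in controls, and Atp5a1, the α subunit, had 291, 215 and 218 FPKM in mutants and 268, 263 and 216 FPKM in controls. Both ranges overlapped, with log2 differences of 0.0012 and -0.05. The ratio of Atp5b to Atp5a1 was 1.52, 1.604 and 1.59 in mutants and 1.57, 1.51 and 1.46 in controls. Atp5c1, the γ subunit that turns inside the head, averaged 71.8 ± 2.13 FPKM in mutants and 69.5 ± 9.32 FPKM in controls (SD, n = 3 each).

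The membrane ring is built from subunit c, for which 3 genes encode the same mature protein. Atp5g2 had 14.8, 16.9 and 16.2 FPKM in mutants and 13.7, 14.2 and 11.04 FPKM in controls. All mutant libraries lay above all control libraries, with a log2 difference of 0.29 (standard error 0.118), the smallest unadjusted p of any member. It was 0.18 without control replicate 3. Atp5g2 lies at chr15:102662868-102671047 on GRCm38.p6.

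Atp5g2 was the smallest source of subunit c transcripts. It gave 6.44, 9.23 and 9.90% of the FPKM of the 3 genes in mutants and 6.86, 6.91 and 6.88% in controls. Mutant replicate 1 lay below the controls in this share and mutants 2 and 3 above them, so the groups overlapped. Atp5g3 gave 79.8, 76.8 and 75.3% in mutants and 78.1, 80.0 and 80.5% in controls, and Atp5g1 gave 13.7, 14.0 and 14.8% in mutants and 14.996, 13.1 and 12.6% in controls.

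Atp5k, a small subunit of the membrane part that takes part in joining complex V into dimers, had the largest difference of the 86 members. It had 44.4, 57.0 and 112 FPKM in mutants and 47.0, 49.1 and 25.9 FPKM in controls. The groups overlapped, since mutant replicate 1 was below control replicates 1 and 2, and the spread came from mutant replicate 3 at the top and control replicate 3 at the bottom. The log2 difference was 0.73 (standard error 0.358). It was 0.35 without mutant replicate 3 and 0.45 without control replicate 3. Atp5k lies at chr5:108433246-108434399 on GRCm38.p6 and had 196 to 912 reads per library.

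Atp5j2, another small membrane subunit, had 83.1, 78.4 and 105 FPKM in mutants and 82.1, 78.4 and 55.2 FPKM in controls. Mutant replicate 3 and control replicate 3 again stood at the ends, and the log2 difference was 0.31 (standard error 0.178), or 0.13 without control replicate 3. The subunits Atp5d, Atp5e, Atp5f1, Atp5h, Atp5j and Atp5o had mean levels from 52.0 FPKM (Atp5j) to 130.4 FPKM (Atp5o) over the 6 libraries, with overlapping groups and log2 differences from -0.03 (Atp5d) to 0.19 (Atp5j).

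Atp5l was the lowest true subunit of complex V, at 4.94 FPKM on average, and 84.8% of its 50-base stretches also occur in other genes, so its value is uncertain. Dmac2l (listed as Atp5s) averaged 4.19 ± 0.103 FPKM in mutants and 4.02 ± 0.561 FPKM in controls (SD, n = 3 each). Over all 91 members, 47 share at least 1 such stretch with another gene, and in Atp5l alone this reaches more than 50% of them.

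Control replicate 3 gave the lowest value of the 6 libraries for 70 of the 86 members, a position it held for 24.3% of all genes. By complex this was so for 38 of 43 genes in complex I, 3 of 4 in complex II, 6 of 8 in complex III, 10 of 14 in complex IV and 13 of 17 in complex V. The highest value was in mutant replicate 1 for 37 members and in control replicate 1 for 23, in mutant replicate 3 for 17, and in mutant replicate 2 and control replicate 2 for 4 each. The mean log2(FPKM + 1) over the 86 members was 5.52, 5.41 and 5.45 in the mutants and 5.52, 5.40 and 5.12 in the controls. Control replicate 3 lay apart from the other 5 libraries. Group means were 5.46 ± 0.05 in mutants and 5.34 ± 0.21 in controls (SD, n = 3 each), a smaller gap than the spread of the controls.

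Complex by complex the same library was lowest. The mean log2 level of complex I was 5.18, 5.09 and 5.14 in mutants and 5.19, 5.05 and 4.76 in controls. That of complex IV was 5.56, 5.54 and 5.54 in mutants and 5.59, 5.58 and 5.27 in controls, and that of complex V 5.88, 5.75 and 5.81 in mutants and 5.85, 5.72 and 5.45 in controls. In complexes I, IV and V mutant replicates 1 and 2 lay close to control replicates 1 and 2. Complex III had 6.24, 6.08 and 6.08 in mutants and 6.23, 6.07 and 5.77 in controls. Complex II had 5.95, 5.71 and 5.71 in mutants and 5.84, 5.81 and 5.62 in controls.

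Photoreceptor markers followed a similar order of libraries. Their mean log2 level was 7.85, 7.48 and 7.52 in mutants and 7.73, 7.63 and 7.17 in controls, and control replicate 3 was lowest for 17 of the 18. Their differences were positive in 14 of 18 with all libraries and in 5 of 18 without control replicate 3. The pan-endothelial markers ran the other way, at 5.02, 5.15 and 5.39 in mutants and 5.04, 4.93 and 6.04 in controls, with 0 of 20 differences positive and 20 of 20 without control replicate 3. The part of cell make-up in the members' differences was not tested.

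Other marker lists gave 0 calls by the same limma test. Differences were positive for 9 of 11 pericyte and smooth muscle markers, whose mean log2 level was 3.81, 3.67 and 3.89 in mutants and 3.43, 3.48 and 4.24 in controls. They were positive for 1 of 11 microglia markers, at 1.96, 2.69 and 2.99 in mutants and 2.85, 2.83 and 2.49 in controls. For Müller glia and astrocytes 5 of 10 were positive, and for inner retinal neurons 11 of 16. Of 6 erythroid genes 1 could be tested and 4 were listed at 0 in all libraries.

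**Figure D4:**
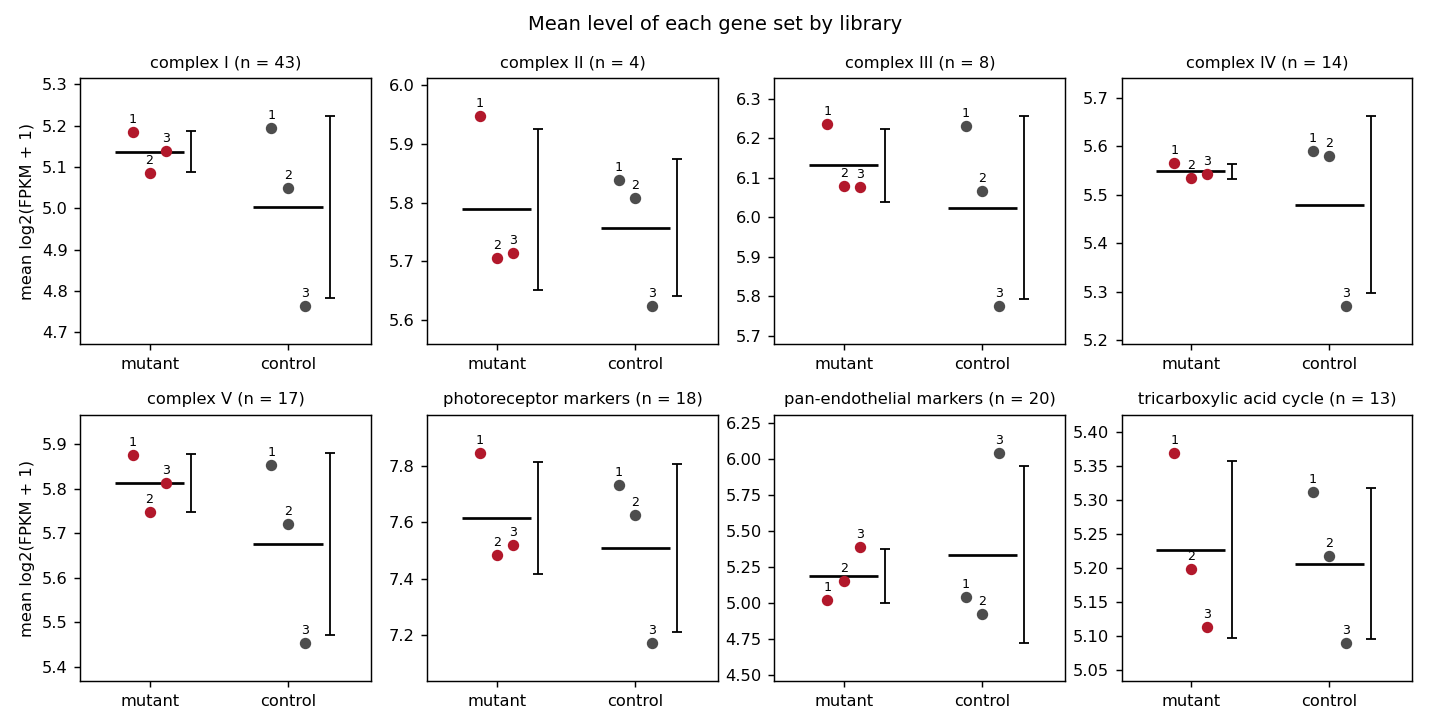
Mean log2(FPKM + 1) of each gene set in each library (points, numbered by replicate), mutants left of controls; horizontal bars are group means, vertical bars ±1 SD (n = 3 each), and each panel has its own axis range. Control replicate 3 was lowest in all 5 complexes and in photoreceptor markers, and highest in pan-endothelial markers.

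For a further comparison the libraries were divided here into the sets A to C and D to F. The labels give the letters but no such sets, so a set is not known to be a batch. In the set A to C, mutant replicate 1 lay above the mean of control replicates 1 and 2 for 63 of the 86 members, with a median log2 difference of 0.08, while 54.5% of all genes did. In the set D to F, the mean of mutant replicates 2 and 3 lay above control replicate 3 for 81 of the 86, with a median of 0.30, against 50.8% of all genes. With the set as a block, 81 of the 86 differences were positive against 50.1% of all genes, the median was 0.18, and 0 members passed (smallest adjusted p 0.718 by limma). In that fit 21 members had an unadjusted p under 0.05, against 6.81% of all genes. A fit with library weights gave the lowest weights to control replicate 3 (0.260) and mutant replicate 1 (0.295). Mutant replicate 2 (7.00) and control replicate 2 (3.35) had the highest. Under these weights 1.06% of all genes passed and 0 members did (smallest adjusted p of a member 0.0519 by limma). Of the 86 differences 37 were positive, against 50.2% of all genes, and 22 members had an unadjusted p under 0.05 by limma against 29.9% of all genes. Control replicate 3 is the single control of its set, so that library and the set's control cannot be told apart.

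**Figure D5:**
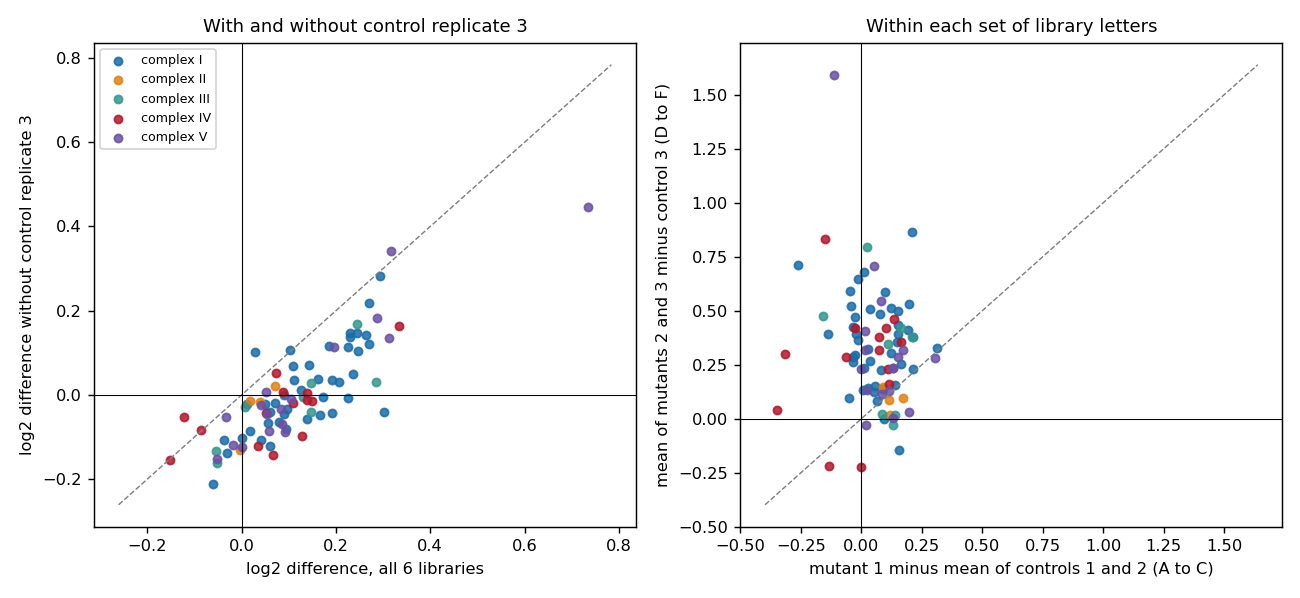
Left, each gene's log2 difference with all 6 libraries (x) and without control replicate 3 (y); right, mutant 1 minus the mean of controls 1 and 2 (x, libraries A to C) and the mean of mutants 2 and 3 minus control 3 (y, libraries D to F), with colors for complexes and the dashed line marking equal values. On the left 34 of 86 genes stay above 0, and on the right 63 genes are right of 0 and 81 above 0.

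In 4 members the mutant values all lay above the control values (Atp5g2, Ndufaf5, Ndufs8 and Ndufs7), and in 0 members all lay below. Over all genes the groups did not overlap in 2.79% with mutants higher and in 1.56% with mutants lower. The 4 members are 4.65% of the 86.

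Members of every length class were lower in control replicate 3 than in the other libraries. The members are short, with a median length of 756 bases against 2882 over all tested genes. Among members under 600 bases the log2 difference was positive in 30 of 30, with a median of 0.16, and the median of control replicate 3 minus the mean of the other libraries was -0.40 (log2). All genes of that length were positive in 529 of 838, with a median mutant minus control difference of 0.10, and control replicate 3 minus the others was 0.09. In members of 600 to under 1200 bases 25 of 30 were positive with a median of 0.08, and in longer ones 19 of 26 with a median of 0.05. All genes of these lengths were positive in 768 of 1123, with a median of 0.065, and in 5170 of 11657, with a median of -0.014. For members, control replicate 3 minus the others was -0.30 and -0.26 in these classes, and -0.14 and -0.0085 in all genes of the same lengths. Without control replicate 3, 15 of 30, 11 of 30 and 8 of 26 members were positive from the shortest to the longest class. For all genes the counts were then 555 of 838, 646 of 1123 and 5546 of 11657. The part of length was not tested.

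Related pathways gave 0 calls by limma in all 8 lists. Assembly genes of complex I outside the symbol rule were positive in 5 of 7, with a median of 0.07. Acad9, which acts with that assembly machinery, averaged 12.1 ± 0.673 FPKM in mutants and 13.1 ± 0.426 FPKM in controls, and Tmem126b 9.998 ± 1.32 FPKM in mutants and 11.7 ± 2.60 FPKM in controls (SD, n = 3 each). Assembly genes of complex II were positive in 2 of 4, with Sdhaf4 at 15.04 ± 1.72 FPKM in mutants and 13.6 ± 2.06 FPKM in controls. Genes of complex III outside the rule, such as Cyc1 and its assembly factors, were positive in 6 of 7, with a median of 0.12. Among them Lyrm7, known from human cells and yeast to stabilise the Rieske protein before its insertion, averaged 2.05 ± 0.507 FPKM in mutants and 1.38 ± 0.486 FPKM in controls.

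Assembly of complex IV was mixed, with 13 of 22 positive and a median of 0.02, and Pet100 averaged 9.79 ± 1.31 FPKM in mutants and 7.91 ± 1.28 FPKM in controls (SD, n = 3 each). In the list for assembly and inhibition of complex V 5 of 5 were positive, with a median of 0.06, and 3 of 5 without control replicate 3. Its Atpif1, which blocks ATP hydrolysis, averaged 22.001 ± 2.43 FPKM in mutants and 19.7 ± 2.75 FPKM in controls. Cytochrome c was read from Cycs alone, at 4.82 ± 0.527 FPKM in mutants and 4.32 ± 0.902 FPKM in controls. The tricarboxylic acid cycle was positive in 9 of 13, with a median of 0.02, and in 4 of 13 without control replicate 3. Its Idh3b, a subunit of isocitrate dehydrogenase, averaged 64.6 ± 1.82 FPKM in mutants and 58.9 ± 4.90 FPKM in controls.

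Regulators of mitochondrial biogenesis, among them Nrf1, Gabpa and Yy1, were positive in 6 of 15, with a median of -0.03. Gabpb1, a partner of Gabpa, averaged 8.88 ± 0.695 FPKM in mutants and 9.85 ± 0.936 FPKM in controls, and Esrrg, a nuclear receptor that regulates oxidative genes, averaged 13.3 ± 1.32 FPKM in mutants and 11.98 ± 1.78 FPKM in controls (SD, n = 3 each). Ndufa4l2, which the symbol rule leaves out and which is known as a pericyte gene in the mouse, had 14.7, 13.8 and 18.0 FPKM in mutants and 11.9, 15.3 and 16.1 FPKM in controls. Its groups overlapped, with a log2 difference of 0.10 (standard error 0.144). The mitochondrially encoded subunits of complexes I, III, IV and V were not analysed here.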

How the data were processed

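Libraries were built from total RNA (TruSeq RNA Library Preparation v2, per the labels). The deposited table holds FPKM per gene symbol and library, as the authors made it. STAR 2.5.0b, bedtools 2.17.0, DESeq2 and Cufflinks 2.2.1 on build mm10 are named in the submitters' processing notes, without roles. Annotation and strand use were not given in the sources used here. Libraries were grouped by the genotype in the labels (3 mutants, 3 controls).

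Differences came from limma 3.58.1 in R 4.3.3 on log2(FPKM + 1) with a trended prior, two-sided, over 13622 genes with 1 FPKM or more in at least 3 libraries. P-values were adjusted by Benjamini-Hochberg over these genes, with a threshold of 0.05. The pseudocount of 1 understates fold changes of low genes. Whole reads and transcript lengths were recovered from FPKM steps in 16489 of 16491 rows above 0 in every library (tolerance 0.002 reads, rising to 0.05), and limma voom on these reads was added after the data were seen. Recovered reads were 21370994, 30831177 and 26432916 in the mutants and 30876966, 24081875 and 25891783 in the controls. The fit was tested on simulated data.

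Named members were subunits and isoforms listed by role, extremes of level and the smallest p in each complex, members with groups that do not overlap and up to 2 genes per other list. Others were named after their values were seen (Ndufb4, Ndufa13, Ndufab1, Ndufaf3, Ndufaf6, Uqcrc2, Cox6c, Cox7c, Atp5j2, Atp5l and the other subunits of complex V), and the NRF1 letters were shortened after the matches were seen. Values of 1 member are not reported here. The members and lists were chosen with earlier results of these data known. Promoters and gene positions came from RefSeq (GRCm38.p6), matched by symbol or synonym for all 91 members, and shared 50-base stretches from GENCODE transcripts. Alternatives were a pseudocount of 0.1, other filters, quantile and median-of-ratios scaling, replicate and letter blocks, a robust prior, library weights, a threshold of 0.1 and the omission of each library. Python 3.11.15, numpy 2.4.6, pandas 2.3.3 and matplotlib 3.10.9 were used.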

Additional observations from a re-analysis of the deposited data

How the results depend on the processing

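Members passing the test numbered 0 under every alternative run, and 0 genes passed except with library weights, where 145 genes (1.06%) and 0 members did. The members' median difference was between -0.02 and 0.20 over the omission of single libraries, -0.01 with library weights and 0.18 with the letter block. Both groups use the same replicate numbers, but the numbers did not pair the libraries throughout. Deviations from the group means over the tested genes correlated at 0.249, -0.151 and 0.391 between same-numbered libraries. Mutant replicate 2 was closest to control replicate 3 (0.084), and control replicate 2 to mutant replicate 1 (0.231). With the replicate number as a block, 0 genes passed, and the median stayed 0.10.

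Among the named members, log2 differences that turned sign with library weights were -0.029 for Ndufs3, -0.052 for Ndufv1, -0.11 for Ndufv2, -0.019 for Sdha, -0.012 for Sdhb, -0.11 for Sdhc, -0.078 for Uqcrc1, -0.014 for Uqcrb, -0.0024 for Cox4i1, -0.031 for Cox5a, -0.18 for Atp5b, -0.0093 for Atp5c1, -0.020 for Cox6b1, -0.00056 for Cox7a1, -0.046 for Cox7a2, -0.18 for Cox8a, -0.064 for Atp5g1 and -0.0030 for Uqcrq. The weights ran from 0.260 in control replicate 3 and 0.295 in mutant replicate 1 to 7.00 in mutant replicate 2. With the letter block the turned values of named members were 0.046 for Ndufs1, 0.12 for Sdhd, 0.052 for Uqcrfs1, 0.068 for Atp5a1, -0.0080 for Cox7a1 and 0.11 for Atp5g3. Among named members, quantile scaling gave 0.0057 for Sdhd and -0.041 for Atp5b, and median-of-ratios scaling -0.00026 for Atp5b. The cause of these turns was not tested.

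Over the omission of single libraries, differences of named members that changed sign ran from -0.021 to 0.088 for Ndufv1, -0.065 to 0.19 for Ndufv2, -0.047 to 0.065 for Sdha, -0.026 to 0.092 for Sdhb, -0.0050 to 0.15 for Sdhc, -0.051 to 0.043 for Uqcrc1, -0.044 to 0.14 for Cox5a, -0.12 to 0.085 for Atp5b, -0.23 to 0.046 for Cox4i2, -0.14 to 0.22 for Cox7a2, -0.12 to 0.15 for Cox8a, -0.070 to 0.20 for Atp5g1, -0.13 to 0.071 for Sdhd, -0.19 to 0.023 for Atp5a1, -0.18 to 0.11 for Atp5g3, -0.14 to 0.024 for Ndufs1, -0.19 to 0.039 for Uqcrfs1, -0.057 to 0.26 for Cox7a1, -0.041 to 0.12 for Ndufs3, -0.039 to 0.34 for Uqcrb, -0.015 to 0.27 for Cox4i1, -0.045 to 0.15 for Atp5c1, -0.018 to 0.20 for Cox6b1, -0.013 to 0.29 for Cox7b, -0.0062 to 0.41 for Ndufa4 and -0.0059 to 0.25 for Uqcrh. The lists of turned values here and above cover members named by role or by the set rules, not those named after their values were seen. Some of the latter also turned negative without control replicate 3. They were Ndufb4 (-0.040), Cox6c (-0.097), Atp5o (-0.087), Atp5f1 (-0.085), Atp5e (-0.032), Ndufab1 (-0.022) and Atp5h (-0.0093). Depth limits the lowest members, the scarcest tested one having 9 reads in a library.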
